A study of Mus musculus with 23 samples.

Results

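T-cell receptor (TCR) transcripts of tumours given trametinib plus BGB-283 were compared with those of tumours given trametinib alone, at the sampling labelled D4. The combination group had 3 libraries and the trametinib group had 3, which together are 6 of the 23 libraries of the series. They were chosen by their labels alone, and all entries of the TCR beta chain (TRB) and the TCR alpha chain (TRA) were used. These libraries listed 29642 of the 64436 clonotypes of the series, of which 16012 were TRB (of 35389) and 13630 were TRA (of 29047). A clonotype is here an entry of the deposited table, set by its chain, its V and J names and the residues of its CDR3, and its count is the deposited value in a library.

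Per the labels, all groups came from 1 syngeneic mouse model, an Nras-mutant melanoma line in Mus musculus that had been exposed to ultraviolet radiation to raise its load of mutations. Both groups carried trametinib, an inhibitor of the kinases MEK1 and MEK2, and differed by BGB-283 (lifirafenib), an inhibitor of RAF kinases, which act upstream of MEK. The labels give neither the doses nor the event from which D4 is counted. They do not say whether libraries of a group came from separate mice, and the source of the spread between libraries was not tested. The tissue is labelled as a melanoma cell line. The table lists only TRA and TRB, so no marker of tumour cells or of other leukocytes could be checked, and bulk RNA cannot tell fewer T cells from less TCR RNA per cell.

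A TCR beta chain is built by joining a V, a D and a J segment, and an alpha chain by joining a V and a J segment. Bases added or lost at the joins vary the CDR3, the loop that meets the peptide on an MHC molecule. T cells that divide after meeting antigen share their receptor, so a large clonotype marks an expanded clone, or cells rich in TCR RNA, and the many rare clonotypes of a tissue make up a low-count tail. Questions asked of the pair of groups were therefore how many clonotypes each held, in which size class they lay, which segments they used and how far they recurred between libraries.

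The largest TRB clonotype of each library is shown by its CDR3, to give the identity of the clones that weigh most in every share below. All 6 differed.
Combination replicate 1, TRBV16 with TRBJ2-7: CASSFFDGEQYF
Combination replicate 2, TRBV12-1 with TRBJ2-7: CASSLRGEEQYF
Combination replicate 3, TRBV17 with TRBJ2-4: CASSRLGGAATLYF
Trametinib replicate 1, TRBV3 with TRBJ2-5: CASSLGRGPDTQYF
Trametinib replicate 2, TRBV16 with TRBJ2-5: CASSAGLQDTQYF
Trametinib replicate 3, TRBV3 with TRBJ2-5: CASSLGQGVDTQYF

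The largest TRA clonotypes likewise differed between all 6 libraries. That of combination replicate 1 joined TRAV14-3 to TRAJ27 with 13 residues, and the others were as follows.
Combination replicate 2, TRAV9D-1 with TRAJ40: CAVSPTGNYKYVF
Combination replicate 3, TRAV8-1V8D-1 with TRAJ49: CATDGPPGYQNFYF
Trametinib replicate 1, TRAV8-2 with TRAJ11: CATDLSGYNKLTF
Trametinib replicate 2, TRAV16D/DV11V16N with TRAJ31: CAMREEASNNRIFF
Trametinib replicate 3, TRAV7D-2 with TRAJ11: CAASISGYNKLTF

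The libraries differed in depth and in the form of their counts, and both moved with the groups. Total counts ran from 656327 to 798622 in combination libraries and from 185226 to 488105 in trametinib libraries. No value was 1 or 2, and small counts piled up at 20. Of the TRB clonotypes with 3 to 20 counts, those at exactly 20 were 2.7%, 3.2% and 4.4% in combination libraries and 34.2%, 12.9% and 18.3% in trametinib libraries. A count of 20 was therefore used as an estimate of 1 molecule, which is an inference from the values.

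More clonotypes were listed under the combination than under trametinib in both chains, and every combination library exceeded every trametinib library. TRB clonotypes numbered 3584, 5172 and 3718 in combination libraries, against 733, 1456 and 1657 in trametinib libraries. The means were 4158 ± 881 and 1282 ± 486 (SD, n = 3 each), a ratio of geometric means of 3.39 (log2 1.76, exact permutation p = 0.1). That is the smallest p which 3 libraries against 3 can give in a two-sided test, so no measure of this kind could pass 0.05. TRA clonotypes numbered 3317, 4424 and 3280 in combination libraries, against 743, 1125 and 1635 in trametinib libraries (ratio 3.28, log2 1.71, exact permutation p = 0.1). For scale, untreated tumours at D4 had 214 to 696 TRB clonotypes and tumours given BGB-283 alone had 833 to 1370, below every combination library.

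The difference in depth was then removed by drawing equal numbers of counts. At 85945 TRB counts, the libraries held on average 3328, 4772 and 3482 clonotypes under the combination and 733, 1448 and 1638 under trametinib, a ratio of 3.17. At 99281 TRA counts, the ratio was 2.92. Drawing equal numbers of estimated molecules brought the groups closer. The estimate divided each count by 20 and rounded up, so a clonotype of 3 to 19 counts became a whole molecule. At 4607 estimated TRB molecules, 1526, 2090 and 1659 clonotypes remained in combination libraries and 733, 1100 and 1104 in trametinib libraries, a log2 difference of 0.86 in place of 1.66. The TRA difference was 0.65 on that scale, and in both chains the groups still did not overlap (exact permutation p = 0.1). Clonotypes of 3 to 19 counts were 52.7% to 69.5% of TRB clonotypes under the combination and 23.1% to 42.1% under trametinib. In TRA they were 46.0% to 60.9% under the combination and 25.3% to 36.0% under trametinib. Rounding up thus weighed more on the combination, so this draw cannot decide whether the groups differ at equal numbers of true molecules.

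Most of the additional clonotypes lay in the low-count tail, defined as 3 to 20 counts: of the difference in mean TRB clonotypes of 2876, the tail made up 2023. TRB tail clonotypes numbered 2561, 3137 and 2050 in combination libraries, against 257, 704 and 717 in trametinib libraries (ratio 5.03, exact permutation p = 0.1). TRA tail clonotypes numbered 2081, 2219 and 1588 in combination libraries, against 267, 470 and 681 in trametinib libraries (ratio 4.41). The tail took 8.28%, 9.31% and 6.46% of TRB counts under the combination and 3.78%, 5.11% and 4.28% under trametinib. Its TRA share averaged 3.55% ± 0.27 under the combination and 2.80% ± 0.36 under trametinib (SD, n = 3 each).

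Within the tail, the groups parted below 20 counts and not at 20. TRB clonotypes with 3 to 19 counts numbered 2492, 3037 and 1960 in combination libraries, against 169, 613 and 586 in trametinib libraries, a ratio of 6.25. Those at exactly 20 counts numbered 69, 100 and 90 in combination libraries, against 88, 91 and 131 in trametinib libraries, and the ranges overlapped. At the lowest listed count, 3, there were 535, 655 and 295 TRB clonotypes under the combination and 29, 86 and 51 under trametinib. TRA behaved alike: 3 to 19 counts held 2019, 2151 and 1508 clonotypes under the combination and 188, 402 and 588 under trametinib, while exactly 20 counts held 62, 68 and 80 under the combination and 79, 68 and 93 under trametinib.

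Clonotypes of 20 counts or more were also more numerous under the combination, by a smaller ratio. There were 1092, 2135 and 1758 such TRB clonotypes in combination libraries, against 564, 843 and 1071 in trametinib libraries (ratio 2.00, exact permutation p = 0.1). The highest trametinib library lay just under the lowest combination library. The TRA ratio was 2.32. The part played by the form of the counts, and by the filter that removed counts of 1 and 2, was not tested.

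**Figure D1:**
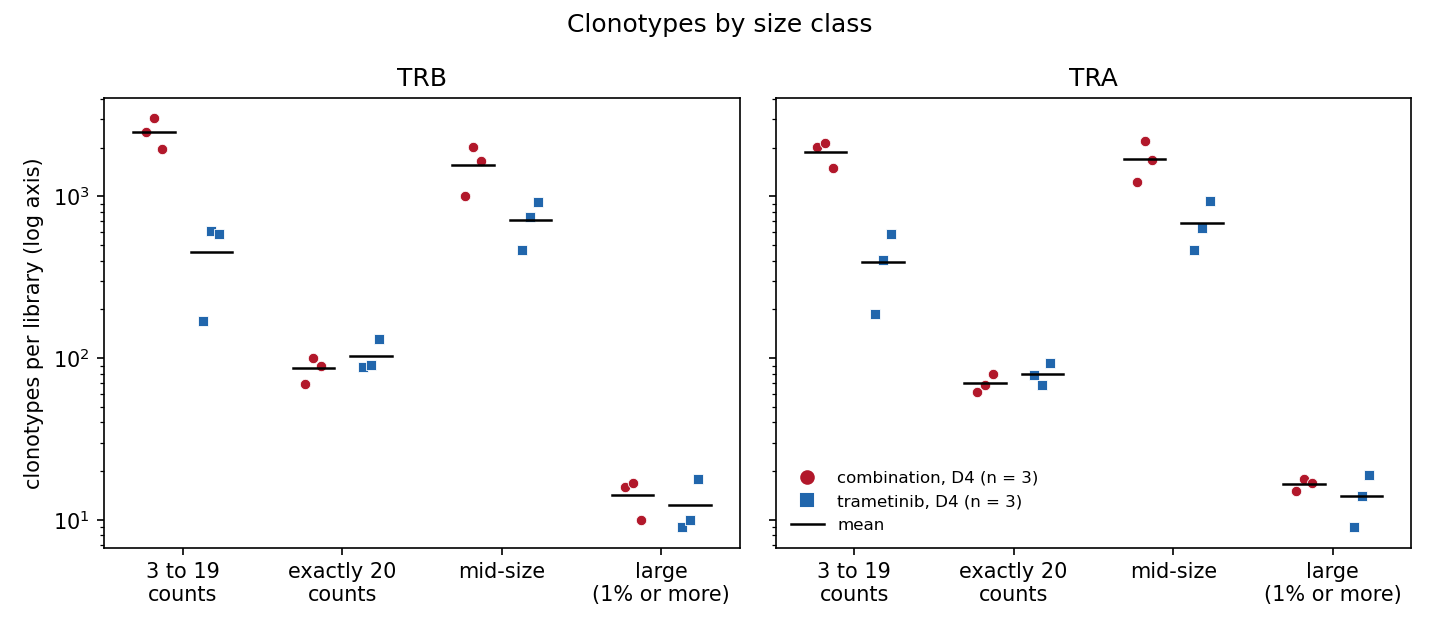
Clonotypes per library (log axis) for TRB (left) and TRA (right), with combination libraries as red circles, trametinib libraries as blue squares and group means as black lines. The groups are separate at 3 to 19 counts (TRB 1960 to 3037 under the combination, 169 to 613 under trametinib) and overlap at exactly 20 counts and among large clonotypes.

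**Figure D2:**
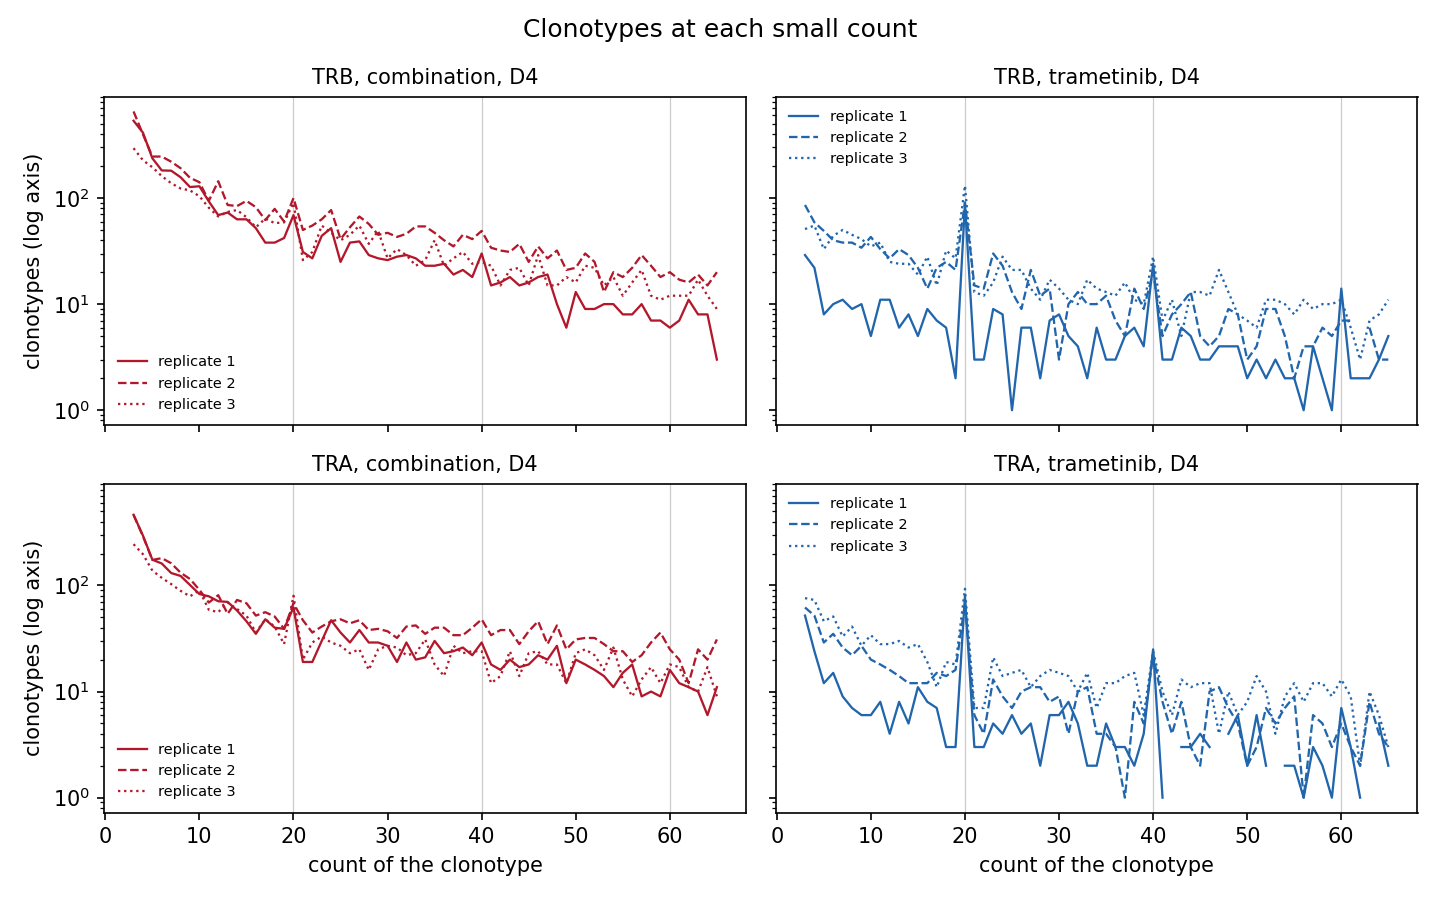
Number of clonotypes (log axis) at each count from 3 upward in every library, combination on the left, trametinib on the right, TRB above TRA, with grey lines at 20, 40 and 60 counts. Combination libraries fall smoothly from 3 counts with a small peak at 20, whereas trametinib libraries have few clonotypes below 20 and tall peaks at 20 and 40.

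Copies made by sequencing error are a known source of rare clonotypes, so tail members that differed by 1 substitution from a clonotype with the same V, J and length and at least 20 times its counts were counted. They made up 7.85%, 7.46% and 10% of the TRB tail in combination libraries, against 23.4%, 13.2% and 16.7% in trametinib libraries. In TRA the shares were 16.2%, 19.2% and 20.3% under the combination and 30.3%, 17.7% and 27.02% under trametinib. Removing them left a TRB tail difference of 2.49 (log2) in place of 2.33. Copies that differed in any other way were not removed, and these shares also depend on the size of the tail. The part played by sequencing error was not tested. Tail CDR3s that did not start with the conserved cysteine were 0.82% to 1.27% of the TRB tail under the combination and 1.81% to 3.11% under trametinib.

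Mid-size clonotypes, above 20 counts and under 1% of the chain, numbered 1007, 2018 and 1658 in TRB combination libraries, against 467, 742 and 922 in trametinib libraries (ratio 2.19, exact permutation p = 0.1). This ratio rests on where the tail ends: with the tail drawn at 0.01% of chain counts the TRB log2 difference was 0.54 in place of 1.13, and the groups overlapped. TRA mid-size clonotypes numbered 1221, 2187 and 1675 under the combination and 467, 641 and 935 under trametinib (ratio 2.52). Although more numerous, TRB mid-size clonotypes took 34.5%, 50.4% and 48.7% of counts under the combination and 62.2%, 55.5% and 48.2% under trametinib, with overlapping ranges (exact permutation p = 0.3).

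Split by share of chain counts instead of by count, the middle of the distribution ran the other way from the tail. TRB clonotypes holding 0.1% to 1% of the chain numbered 47, 52 and 57 in combination libraries, against 227, 116 and 65 in trametinib libraries. They took 16.2%, 15.3% and 16.5% of TRB counts under the combination and 49.1%, 29.9% and 21.5% under trametinib (exact permutation p = 0.1). Every trametinib library lay above every combination library, and trametinib replicate 1, the shallowest of the 6, lay highest. In TRA the same band took 19.9%, 19.5% and 19.6% under the combination and 51.1%, 24.7% and 22.5% under trametinib, while its clonotypes numbered 53 to 68 and 59 to 228, with overlap. Clonotypes under 0.01% took 10.5% ± 2.1 of TRB counts under the combination and 2.02% ± 1.33 under trametinib. This edge follows depth: in TRB it lay above 20 counts in every combination library and under 20 in every trametinib library. The band therefore took in TRB clonotypes at exactly 20 counts under the combination alone. These bands were chosen after the values had been seen.

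**Figure D3:**
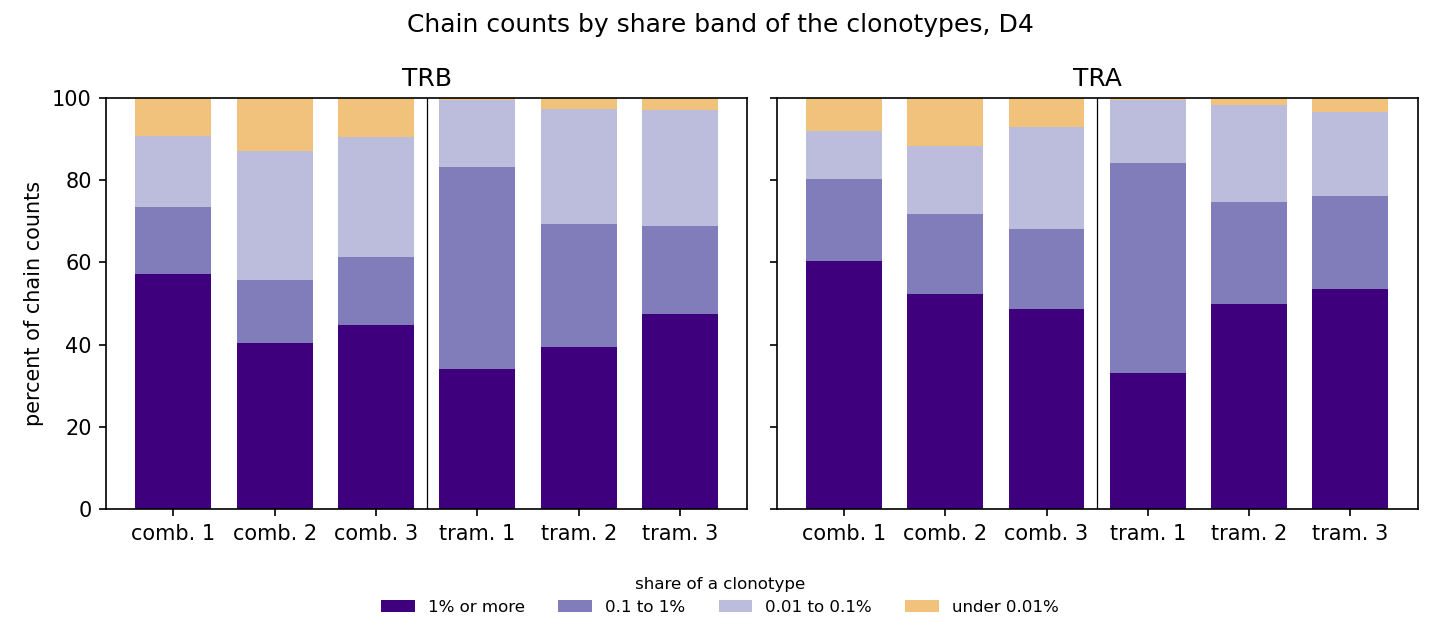
Percent of TRB (left) and TRA (right) counts by the share that single clonotypes hold, with 3 combination libraries left of the line and 3 trametinib libraries right of it. The band from 0.1% to 1% is narrower in every combination library (TRB 15.3% to 16.5%) than in any trametinib library (21.5% to 49.1%). The band under 0.01% is wider, and in TRB it takes in clonotypes at exactly 20 counts under the combination alone.

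Large clonotypes, 1% of the chain or more, did not separate the groups. TRB had 16, 17 and 10 in combination libraries, against 9, 10 and 18 in trametinib libraries (exact permutation p = 0.9). They took 57.2%, 40.3% and 44.9% of TRB counts under the combination and 34.1%, 39.4% and 47.5% under trametinib (exact permutation p = 0.4). TRA had 15, 18 and 17 large clonotypes under the combination and 9, 14 and 19 under trametinib. The 10 largest TRB clonotypes took 49.6%, 31.0% and 44.9% under the combination and 35.0%, 39.4% and 36.4% under trametinib. Clonality, which is 0 for even clonotypes and 1 for a lone one, was 0.327 ± 0.060 for TRB under the combination and 0.253 ± 0.038 under trametinib at equal counts, with overlap (SD, n = 3 each, exact permutation p = 0.3).

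The largest clonotype of a library held 14.99%, 8.37% and 10.1% of TRB counts under the combination and 14.5%, 11.2% and 7.002% under trametinib. The ranges overlapped. In TRA it held 8.25%, 6.47% and 9.11% under the combination and 9.39%, 11.03% and 12.1% under trametinib. Here every combination library lay below every trametinib library, the only measure of large TRA clones for which the groups did not overlap among those given here (exact permutation p = 0.1).

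Some of the large clonotypes were also listed in other libraries. Of the 43 large TRB clonotypes of combination libraries, 10 were listed in at least 1 other of the 6 libraries, as were 7 of the 37 of trametinib libraries. In TRA it was 17 of 50 under the combination and 19 of 42 under trametinib. Over all 23 libraries, 19 of the 43 TRB and 20 of the 50 TRA large clonotypes of the combination were listed in at least 2, as were 14 of the 37 TRB and 25 of the 42 TRA of trametinib. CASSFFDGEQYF, the largest TRB clonotype of combination replicate 1 with 35220 counts, had 3 counts in trametinib replicate 3. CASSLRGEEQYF, the largest of combination replicate 2, held 0.92% of TRB counts in trametinib replicate 3.

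The segments of the large TRB clonotypes are given as a description of few clones, with no test. TRBJ2-7 was used by 4 of 16, 6 of 17 and 1 of 10 in combination libraries, against 1 of 9, 0 of 10 and 2 of 18 in trametinib libraries. Combination replicate 3 lay within the trametinib range. TRBV16 was used by 2 of 16, 1 of 17 and 1 of 10 in combination libraries, against 2 of 9, 3 of 10 and 6 of 18 in trametinib libraries. Among large TRA clonotypes, TRAV7D-2 was the most used V name in both groups, and 5 of its 9 clonotypes under the combination lay in replicate 2 and 7 of its 9 under trametinib in replicate 3.

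No V or J segment passed the test on share of counts in either chain. Segment counts were fitted over all 23 libraries with edgeR's quasi-likelihood test, and none reached an adjusted p of 0.05 among 24 TRBV, 12 TRBJ, 118 TRAV, 41 TRAJ and 264 TRBV and TRBJ pairs (0% called in each). The lowest adjusted p values were 0.680, 0.819, 0.784, 0.629 and 0.703 in that order. At an unadjusted p of 0.05, 0 TRBV, 0 TRBJ, 6 TRAV, 0 TRAJ and 16 pairs passed. DESeq2 called 3 of the 132 TRAV names and 8 of the 236 pairs to which it gave an adjusted p. It called none of the TRBV, TRBJ or TRAJ segments. Groups that did not overlap were found for 3 of 24 TRBV segments (12.5%), 0 of 12 TRBJ (0%), 14 of 118 TRAV (11.9%), 7 of 41 TRAJ (17.1%) and 37 of 264 pairs (14%).

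TRBV5 had the smallest p of the beta V segments. It held 2.49%, 8.05% and 3.66% of TRB counts under the combination and 1.08%, 1.35% and 1.37% under trametinib (log2 1.90 ± 0.98 SE, edgeR adjusted p = 0.680). All combination libraries lay above all trametinib libraries, and in combination replicate 2 a lone clonotype accounted for 6.10 of the 8.05 points. TRBV20 held 2.4997%, 2.82% and 0.945% under the combination and 1.00%, 0.644% and 0.701% under trametinib. Its largest clonotype held 1.29% and 1.99% in combination replicates 1 and 2. TRBV22 was listed in combination replicates 2 and 3 alone, at 0.0383% and 0.00947%. TRBV31, the V segment that lies beyond the constant regions in inverted orientation, held 0.404%, 0.538% and 0.470% under the combination and 0.127%, 0.203% and 0.192% under trametinib, also without overlap.

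In the other direction, TRBV15 held 3.54%, 2.40% and 2.46% under the combination and 8.66%, 10.7% and 1.37% under trametinib (log2 -1.30 ± 0.84 SE, edgeR adjusted p = 0.680). Its 2 high trametinib values rested on lone clonotypes of 5.98% and 8.01%. TRBV26 held 1.18%, 1.72% and 0.879% under the combination and 3.96%, 1.89% and 2.11% under trametinib, without overlap. A lone TRBV26 clonotype held 3.16% in trametinib replicate 1. TRBV23 held 0.0345%, 0.394% and 0.121% under the combination and 0.704%, 0.294% and 1.52% under trametinib. A lone TRBV23 clonotype held 1.21% in trametinib replicate 3. TRBV16, the V segment with the highest mean share under trametinib, held 22.1%, 7.50% and 12.2% under the combination and 11.1%, 21.4% and 17.9% under trametinib.

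Among beta J segments, TRBJ2-7 held 32.5%, 32.1% and 13.04% of TRB counts under the combination and 16.4%, 10.6% and 14.9% under trametinib (log2 0.89 ± 0.58 SE, edgeR adjusted p = 0.819). Combination replicates 1 and 2 were high, and the largest TRBJ2-7 clonotype held 14.99% and 8.37% there. TRBJ2-5 held 18.1%, 10.8% and 25.6% under the combination and 28.5%, 31.1% and 24.3% under trametinib, with overlap. TRBJ1-4 held 5.09%, 7.15% and 2.80% under the combination and 13.1%, 9.91% and 6.14% under trametinib. Its largest clonotype held 5.98% and 5.31% in trametinib replicates 1 and 2. TRBJ2-4 and TRBJ2-1 also overlapped, with log2 differences of 0.51 and -0.36.

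Counting each clonotype once removes the weight of large clones and left a different picture in TRBJ. TRBJ1-6 made up 3.46%, 3.21% and 3.50% of TRB clonotypes under the combination and 3.00%, 1.92% and 1.75% under trametinib. It was the 1 of 12 TRBJ segments that passed (8.33%), and rose by a log2 of 0.71 (edgeR adjusted p = 0.000924, higher in 3 of 3 combination libraries than in any trametinib library). The difference was as large with counts under 20 removed (log2 0.71, adjusted p = 0.0107), but the call was lost without trametinib replicate 3 (log2 0.56, adjusted p = 0.114). Above 20 counts the groups overlapped slightly, with TRBJ1-6 at 3.13% of clonotypes in combination replicate 1 and 3.15% in trametinib replicate 1. By counts, TRBJ1-6 held 2.89%, 1.59% and 2.26% under the combination and 2.34%, 1.49% and 0.642% under trametinib, with overlap. By clonotypes, TRBJ1-4 and TRBJ1-5 did not overlap between the groups either, and did not pass.

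**Figure D4:**
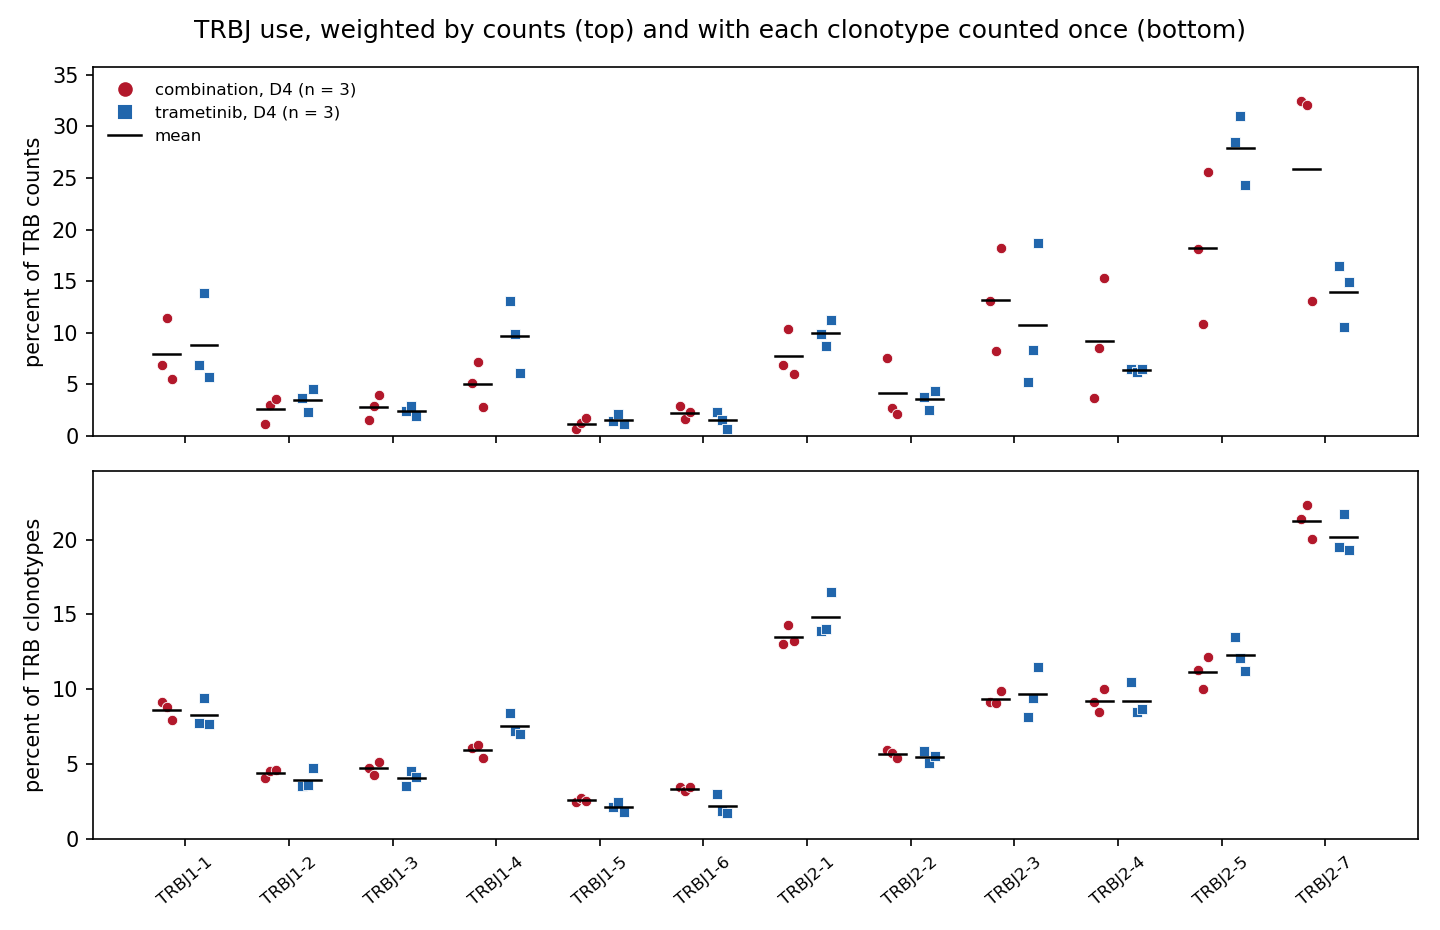
Percent of TRB counts (top) and of TRB clonotypes (bottom) in each TRBJ segment, with combination libraries as red circles left of trametinib libraries as blue squares, and black lines at the means. TRBJ2-7 by counts is high in 2 of 3 combination libraries (32.5% and 32.1%), while by clonotypes libraries of both groups lie close and TRBJ1-6 is the segment that passed.

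Counted once, no TRBV segment (0% of 20 tested) and no TRBV and TRBJ pair (0% of 80 tested) passed. The 3 smallest p values had an adjusted p of 0.0913. TRBV16 made up 12.7%, 10.9% and 13.7% of clonotypes under the combination and 15.007%, 16.1% and 16.5% under trametinib, without overlap (log2 -0.36). TRBV13-2 made up 6.78%, 7.15% and 6.70% under the combination and 4.23%, 5.70% and 4.10% under trametinib (log2 0.54). TRBV31 made up 1.14%, 1.04% and 0.995% under the combination and 0.136%, 0.618% and 0.422% under trametinib (log2 1.27). In the tail, TRBV16 made up 13.2% ± 2.1 of clonotypes under the combination and 19.8% ± 1.6 under trametinib, without overlap. Above 20 counts it made up 11.4% ± 0.8 under the combination and 12.9% ± 0.8 under trametinib, also lower on average, and the ranges overlapped slightly (SD, n = 3 each). TRBV13-2 and TRBV31 did not overlap in either size range. For TRBV31 this rests on few trametinib clonotypes, with 0, 3 and 2 in the tail and 1, 6 and 5 above 20 counts. Over all sizes, TRBV1, TRBV13-3, TRBV15 and TRBV20 also did not overlap by clonotypes. Separation was thus not particular to the segments with the smallest p.

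Alpha segments showed no call by counts, and several of the smallest p values rested on a lone clone. TRAV14-3 held 9.05%, 1.32% and 1.08% of TRA counts under the combination and 0.499%, 0.252% and 1.22% under trametinib (log2 2.54 ± 1.17 SE, edgeR adjusted p = 0.784), of which 8.25 points in combination replicate 1 were its largest clonotype. TRAV13D-3 held 0.561%, 0.148% and 0.171% under the combination and 0.00705%, 0.00363% and 0.00102% under trametinib, where each library listed 1 clonotype. In combination replicate 1, a lone TRAV13D-3 clonotype held 0.551%. TRAV16D/DV11V16N, a joint name for copies that were not separated, held 1.79%, 3.45% and 1.48% under the combination and 7.28%, 12.8% and 2.56% under trametinib. Its largest clonotype held 4.68% and 11.03% in trametinib replicates 1 and 2. TRAV9N-4 held 0.122%, 0.230% and 0.135% under the combination and 2.24%, 0.985% and 0.108% under trametinib. The joint name TRAV14-1V14D-3/DV8V14N-1V14N-3 was listed at 0 in all trametinib libraries and at 0.00744% to 0.0348% under the combination. The joint name TRAV14-1V14-2V14N-1V14N-2 held 0.0335% to 0.0593% under the combination and 0.120% to 0.548% under trametinib, without overlap.

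Counted once, 1 of 56 TRAV names passed (1.79%) and no TRAJ segment did (0% of 40). TRAV3-1 made up 0.121%, 0.249% and 0.610% of TRA clonotypes under the combination and 1.21%, 1.16% and 1.35% under trametinib, and fell by 1.92 on the log2 scale (edgeR adjusted p = 0.0438, lower in 3 of 3 combination libraries). The call held without combination replicate 3 and was lost without any other of the 6 libraries, with adjusted p from 0.105 to 0.321. In the tail, TRAV3-1 made up 0.472% ± 0.318 of clonotypes under the combination and 2.54% ± 0.17 under trametinib, without overlap. Above 20 counts it made up 0.168% ± 0.217 under the combination and 0.382% ± 0.066 under trametinib, also lower on average but with overlap (SD, n = 3 each). These shares rest on 0, 2 and 7 clonotypes under the combination and 2, 2 and 4 under trametinib. TRAV3-1 did not enter the fit with counts under 20 removed. Whether the size ranges differ was not tested. Among others, TRAV7-4V7D-4V7N-4, TRAV14-1V14-2V14N-1V14N-2 and TRAJ58 also did not overlap by clonotypes, and did not pass.

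Among alpha J segments, TRAJ32 held 4.90%, 3.97% and 2.33% of TRA counts under the combination and 1.41%, 0.492% and 0.715% under trametinib (log2 2.10 ± 1.06 SE, edgeR adjusted p = 0.629). In combination replicate 1, a lone TRAJ32 clonotype held 3.87%. TRAJ38 held 3.48%, 4.28% and 1.35% under the combination and 0.447%, 0.576% and 0.785% under trametinib, and like TRAJ32 did not overlap. TRAJ58 held 0.170%, 1.03% and 4.74% under the combination and 0.575%, 0.112% and 0.0839% under trametinib, and TRAJ35 held 0.217%, 0.240% and 3.09% under the combination and 0.274%, 0.222% and 0.0428% under trametinib. Both were high in combination replicate 3, where lone clonotypes held 2.91% and 2.77%. TRAJ4 held 0.269%, 0.244% and 0.355% under the combination and 0.655%, 1.21% and 0.653% under trametinib, without overlap. TRAJ17 and TRAJ30 were lower on average under the combination, with overlap (log2 -2.02 and -1.22).

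Receptors of innate-like T cells were examined by lists of segments. Invariant NKT cells recognise lipids on CD1d through an alpha chain of a TRAV11 copy with TRAJ18. Such entries held 0.317%, 0.425% and 1.13% of TRA counts under the combination and 0.211%, 0.303% and 0.322% under trametinib (log2 odds 0.97, exact permutation p = 0.2). Combination replicate 3 was the highest, and combination replicate 1 lay within the trametinib range. They numbered 9 clonotypes in each combination library, against 3, 4 and 6 in trametinib libraries. As a share of TRA clonotypes the direction turned, with 0.271%, 0.203% and 0.274% under the combination and 0.404%, 0.356% and 0.367% under trametinib, without overlap. The beta segments that pair with this chain held 25.0% ± 4.5 of TRB counts under the combination and 21.2% ± 1.4 under trametinib (SD, n = 3 each, exact permutation p = 0.2). The alpha chain of MAIT cells, TRAV1 with TRAJ33, which recognise vitamin B metabolites on MR1, had 0, 18 and 116 counts under the combination and was listed at 0 in the 3 trametinib libraries.

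Other groupings of segments also overlapped between the groups by counts. TRBV segments whose T cells endogenous superantigens delete in some mouse strains (TRBV12-1, TRBV12-2, TRBV15 and TRBV26) held 19.2% ± 7.8 of TRB counts under the combination and 21.1% ± 7.4 under trametinib (exact permutation p = 0.7). The TRBJ1 cluster held 18.2%, 27.3% and 19.7% under the combination and 29.7%, 32.6% and 20.04% under trametinib (exact permutation p = 0.2). By clonotypes the cluster ran the other way, with 30.1%, 29.9% and 29.3% under the combination and 28.5%, 29.2% and 27.2% under trametinib, without overlap. TRAJ segments numbered above 30, on the side of the J cluster nearer to the V segments, held 46.7%, 40.6% and 52.7% of TRA counts under the combination and 29.2%, 46.8% and 24.8% under trametinib (exact permutation p = 0.3).

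The TRB CDR3 was shorter by counts under the combination and not by clonotypes. Weighted by counts, its mean length was 13.51, 13.63 and 13.80 residues in combination libraries, against 13.94, 13.82 and 13.89 in trametinib libraries (difference -0.24, exact permutation p = 0.1). With each clonotype counted once, the means were 13.98 ± 0.01 under the combination and 13.96 ± 0.08 under trametinib, and the sign turned. Loops of 12 residues held 28.3%, 17.2% and 6.43% of TRB counts under the combination and 5.20%, 6.93% and 6.28% under trametinib. Combination replicates 1 and 2 were high, and their largest clonotypes, both with 12 residues, held 14.99% and 8.37%. TRA length averaged 13.69 ± 0.11 residues under the combination and 13.60 ± 0.08 under trametinib, with overlap.

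Combination libraries shared more clonotypes with each other than trametinib libraries did. At equal counts, pairs of combination libraries had 48.3, 34.4 and 56.0 TRB clonotypes in common, against 3.99, 2.00 and 7.75 for pairs of trametinib libraries. In TRA the means over pairs were 148 and 27.7. Since libraries with more clonotypes have more chances to share, the shared number was also divided by the possible pairs of clonotypes, a choice made after the values had been seen. Per 1000000 possible pairs, 3.13 ± 0.21 TRB clonotypes were shared within the combination and 2.90 ± 1.09 within trametinib (SD over 3 pairs each). The excess was no longer beyond the spread (exact permutation p = 0.8). In TRA the rates were 14.2 ± 1.5 within the combination and 22.5 ± 2.0 within trametinib, which turns the direction (exact permutation p = 0.1). Pairs with 1 library of each group shared 3.50 ± 1.04 TRB and 15.3 ± 1.9 TRA clonotypes per 1000000 (9 pairs each), so TRB sharing between the groups lay in the range found within trametinib or above it.

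Most clonotypes were listed in 1 of the 6 libraries, 15731 of 16012 in TRB and 12928 of 13630 in TRA. Both groups listed 149 TRB clonotypes, which are 1.21% of the 12328 of the combination and 3.89% of the 3833 of trametinib. They listed 336 TRA clonotypes in common, 3.19% of the 10541 of the combination and 9.81% of the 3425 of trametinib. Tail clonotypes recurred less by share than mid-size ones in every TRA library: in TRA combination libraries, 10.2%, 7.39% and 6.93% of tail clonotypes were listed in another of the 6 libraries, against 12.04%, 12.5% and 13.6% of mid-size clonotypes.

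No TRB clonotype was listed in more than 4 of the 6 libraries. TRBV13-2 with TRBJ1-1, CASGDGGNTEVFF, held 1.99%, 0.119% and 0.207% of TRB counts under the combination and was listed at 0, 0 and 1.43% under trametinib. TRBV2 with TRBJ2-5, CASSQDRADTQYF, held 0.0119%, 0.0179% and 0.679% under the combination and was listed at 0, 0 and 5.76% under trametinib. TRBV12-2 with TRBJ2-5, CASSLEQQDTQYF, held 1.19%, 0.678% and 0.335% in the 3 trametinib libraries and was listed in combination replicate 2 alone, at 0.00474%. TRBV17 with TRBJ2-1, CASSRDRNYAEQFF, held 1.16% and 0.0423% in combination replicates 1 and 2 and 0.356% in trametinib replicate 3. TRBV19 with TRBJ2-4, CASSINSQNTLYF, held 1.11% and 0.192% in combination replicates 2 and 3 and 0.142% in trametinib replicate 1.

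In TRA, 3 clonotypes were listed in all 6 libraries. The most widely listed, in 20 of the 23 libraries, was the 15-residue chain of TRAV11N with TRAJ18, the segments of the invariant NKT receptor, with 0.299%, 0.395% and 0.974% of TRA counts under the combination and 0.172%, 0.223% and 0.213% under trametinib. All combination libraries lay above all trametinib libraries. TRAV14D-3/DV8V14N-3 with TRAJ22, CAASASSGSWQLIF, held 0.0123%, 0.0381% and 0.0758% under the combination and 0.0987%, 0.0429% and 0.0791% under trametinib. TRAV12D-2 with TRAJ24, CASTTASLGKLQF, held 0.0147%, 0.00324% and 0.00096% under the combination and 0.0604%, 0.0816% and 0.0370% under trametinib, without overlap. TRAV12N-3 with TRAJ11, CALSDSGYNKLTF, held 7.21%, 3.12% and 0.704% under the combination and 0, 0.129% and 4.86% under trametinib. TRAV9N-2 with TRAJ37, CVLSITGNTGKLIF, held 0.0392%, 0 and 0.417% under the combination and 0.488%, 0.230% and 2.92% under trametinib.

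Of the 155 clonotypes of both chains listed in at least 3 of the 6 libraries, none passed (0%; edgeR lowest adjusted p = 0.241), and 24 had an unadjusted p under 0.05. DESeq2 called 25. A clonotype could enter by being listed in the 3 libraries of a single group, as 23 were through the combination and 1 through trametinib, so no direction is read from these calls.

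At D11, the mean number of TRB clonotypes differed between the groups by 1000 in the same direction, against 2876 at D4. The D11 groups overlapped, with 2256, 4328 and 1074 under the combination and 2194, 931 and 1533 under trametinib. The share of the 10 largest TRB clonotypes differed by 33.0 points at D11, against 4.86 at D4. The D4 value was 0.97 points without combination replicate 1 and 10.3 without combination replicate 2. The change of these differences between D4 and D11 was not tested. In the edgeR fit no TRBV, TRBJ, TRAV or TRAJ segment passed the test of the difference between the days (lowest adjusted p = 0.349, TRBV).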

How the data were processed

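Per the labels' protocols, total RNA (AllPrep and mirVana kits) was turned into TCR libraries with a QIAseq kit. The authors deposited 1 table of counts per chain, V, J and CDR3 for 23 libraries, not scaled between them. Per the submitters' processing notes the build was GRCh38, a human assembly, so no coordinates are given. The clonotype caller is not given in the sources used here. Entries with an unresolved CDR3 residue (274 of 64710, of which 105 in the 6 libraries) were left out. Since counts of 1 and 2 are absent, a 0 is written as listed at 0.

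Measures per library were compared with an exact two-sided permutation test (34 measures, 18 at the smallest p of 0.1, lowest Benjamini-Hochberg adjusted p 0.189). Equal counts are means of 100 draws. Segment counts were fitted over all 23 libraries with edgeR 4.0.16 (R 4.3.3), with chain totals as library size and its filter on low counts. Clonotypes were fitted over the 6 libraries, with the summed totals of both chains as library size and without that filter. Benjamini-Hochberg adjustment was used at 0.05 in both, and DESeq2 1.42.0 was an alternative. The edgeR fit recovered known changes in simulated counts that spread less than these data (coefficient of variation here 0.576 for TRBJ to 2.48 for clonotypes). Its power in these data was not tested. The drawing of equal counts and the permutation test were checked against known values. The 3 segments with the smallest p in each direction were named per kind, with the largest clonotype of each library and the 5 most shared per chain; others were chosen after their values were seen. Of 143 TRAV names, 68 matched a mouse gene symbol, as did all TRBV, TRBJ and TRAJ names. Members and lists were chosen with earlier results of these data known. The labels do not say whether replicate numbers pair the groups, so the numbers were not taken as pairs. Same-numbered libraries correlated by 0.16, -0.59 and -0.26 in TRB V use, and differently numbered ones by -0.50 to 0.56. Large clones of single libraries weigh in these values, so they cannot decide the question. Python 3.11.15 and pandas 2.3.3 were used.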

Additional observations from a re-analysis of the deposited data

How the results depend on the processing

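Of 350 alternatives to 24 measures, 343 kept the direction (1 of them, large TRB clonotypes drawn from 2%, came to a difference of 0) and 7 reversed it. With counts under 20 removed, the tail difference (combination minus trametinib) was -0.25 (log2) for TRB and -0.19 for TRA clonotypes, and -0.89 and -0.71 points of TRB and TRA counts, since the tail then holds counts of exactly 20 alone. Large TRB clonotypes differed by -2.33 when drawn from 0.5%. TRB CDR3 length differed by 0.020 residues with each clonotype counted once. TRA sharing within groups differed by -8.33 per 1000000 possible pairs, an alternative added after seeing the data.

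By edgeR, calls numbered 0 in all 6 fits of segments, pairs and clonotypes. Counting each clonotype once gave 1 TRBJ call and 1 TRAV call, and fitting the 6 libraries alone gave 1 TRAV call (TRAV13D-3). DESeq2 called 3 of 132 TRAV names, 8 of 236 pairs and 25 of 126 clonotypes. The cause of these differences was not tested. Calls remained 0 when each library was left out and with a replicate block. For measures per library, taking same-numbered libraries as pairs leaves a difference of means unchanged by construction. TRB clonotype number stayed at 1.76 (exact sign-flip p = 0.25, the smallest that 3 pairs allow).

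Leaving out each library in turn gave log2 ranges for TRB and TRA of 1.40 to 1.99 and 1.42 to 1.99 for clonotype number, 1.31 to 1.89 and 1.27 to 1.81 at equal counts, 1.84 to 2.58 and 1.78 to 2.46 for the tail, and 0.86 to 1.42 and 1.09 to 1.59 for mid-size clonotypes. Large clonotypes ranged over 0.33 to 4.83 in TRB and 0.17 to 5.17 in TRA, and the share of the 10 largest over 0.97 to 10.3 points in TRB and 1.21 to 7.05 in TRA. Total counts per library, 185226 to 798622, and the absence of counts under 3 limit what the tail can show, and 3 libraries a group limit every p.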
